A study of Mus musculus with 7 samples.

Results

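The nuclear-encoded subunits of the mitochondrial respiratory chain were taken as the protein-coding genes whose symbols match those of the subunits of complexes I to V (Nduf followed by a, b, c, s or v and a number, Sdha to Sdhd, Uqcr, Cox5 to Cox8 and Atp5), with pseudogenes and assembly factors left out. The rule used symbols and no measured value. It gave 83 genes under 82 symbols among 21884 nuclear protein-coding genes, with 35 in complex I, 4 in complex II, 8 in complex III, 18 in complex IV and 18 in complex V. Ndufa4 and its relative Ndufa4l2 were counted in complex IV, to which the Ndufa4 protein belongs. The patterns do not match Cox4i1, Cox4i2, Ndufab1 and Cyc1, which are subunits too and are given separately. They do match Cox7a2l, which joins complexes III and IV in supercomplexes, and Atp5s, a coupling factor of ATP synthase.

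The samples were primary tumours labelled day 12, grown orthotopically (mammary fat pad) in wild-type BALB/c mice from 4T1-12b(luc) cells, a luciferase-carrying derivative of the 4T1 mouse mammary carcinoma line. From a size of about 150 mm3 each tumour received 6 injections of 50 µl, 1 every other day, of TIS sEV (3 libraries), Cont sEV (1 library) or saline (3 libraries). TIS sEV are small extracellular vesicles of 4T1 cells made senescent by nocodazole (100 ng/ml for 72 h), which stops microtubules from forming, followed by 72 h without the drug. Cont sEV are vesicles of 4T1 cells given DMSO on the same schedule. Replicates are numbered, but no label ties them to separate animals, so p-values here reflect the spread between libraries and that spread may be technical. The vesicle columns of the deposited table carry abbreviations that were read as Cont sEV and TIS sEV, and each comparison with a vesicle group rests on that reading. As a check of the tumour label, Krt8 and Krt18, keratins of epithelial cells, averaged 1238 ± 534 and 1347 ± 513 rescaled TPM in TIS sEV tumours and 1882 ± 718 and 2193 ± 828 in saline tumours.

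The respiratory chain sits in the inner mitochondrial membrane. Complex I takes electrons from NADH and complex II from succinate, both pass them through ubiquinone to complex III, and cytochrome c carries them on to complex IV, which reduces oxygen. Complexes I, III and IV pump protons, and complex V, the ATP synthase, makes ATP as the protons flow back. Complexes I, III, IV and V combine nuclear-encoded subunits with subunits encoded by mitochondrial DNA, whereas complex II is wholly nuclear-encoded. 4T1 cells are known to respire as well as to ferment glucose.

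Levels are given as rescaled TPM: the deposited TPM (a level per transcript length that sums to 1000000 over all RNA of a library) of each nuclear protein-coding gene, rescaled so that these genes sum to 1000000 in each library. The rescaling was used because nuclear protein-coding genes took 64.8%, 28.6% and 63.7% of the deposited TPM in the TIS sEV libraries, 73.8% in the Cont sEV library and 56.8%, 73.8% and 74.7% in the saline libraries. TIS sEV replicate 2 stood apart, with 22.9% of its TPM in nuclear ribosomal RNA, against 0.807% to 2.40% in the other 6 libraries. The depth of the libraries is unknown, since TPM keeps none. In bulk tumour RNA, fewer cells of a type and less RNA per cell cannot be told apart.

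The subunits took a larger part of the nuclear protein-coding RNA in vesicle-treated tumours than in saline tumours. Together the 83 genes held 2.97%, 3.23% and 3.50% of it in the TIS sEV libraries, 3.40% in the Cont sEV library and 2.57%, 2.64% and 2.62% in the saline libraries. All 3 TIS sEV values and the Cont sEV value lay above the 3 saline values. The TIS sEV mean was 1.24 times the saline mean, and the value of the lone Cont sEV library was 1.30 times the saline mean. As a share of the deposited TPM of all RNA classes the groups overlapped, at 1.93%, 0.922% and 2.23% with TIS sEV, 2.51% with Cont sEV and 1.46%, 1.95% and 1.96% with saline. The RNA of the 13 mitochondrially encoded subunits took 15.9%, 15.3% and 13.6% of the deposited TPM with TIS sEV, 9.65% with Cont sEV and 21.1%, 12.5% and 11.9% with saline, and here too the groups overlapped.

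**Figure D1:**
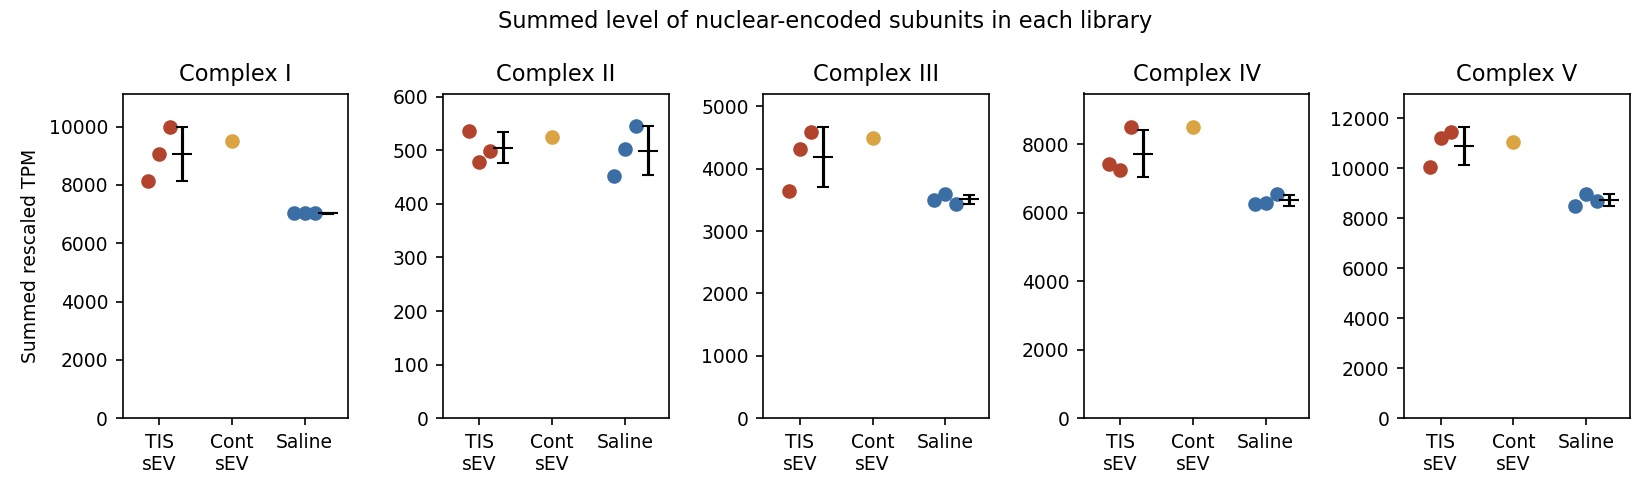
Summed rescaled TPM of the nuclear-encoded subunits of complexes I to V in each library, with TIS sEV libraries in red, the Cont sEV library in yellow and saline libraries in blue. Crosses with bars are the mean and SD of 3 libraries. The TIS sEV libraries lie above the saline libraries for complexes I, III, IV and V and among them for complex II; as a share of the deposited TPM the groups overlapped for all complexes together.

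No subunit passed the test between any 2 groups. Of the 83 genes, 78 had at least 1 rescaled TPM in at least 3 of the 7 libraries and were tested by limma on log2(rescaled TPM + 1), with Benjamini-Hochberg adjustment over all 11438 tested genes and a threshold of 0.05. The added 1 makes differences of genes with low levels smaller than they are. Of the 78 tested subunits 0 passed between TIS sEV and saline, Cont sEV and saline or TIS sEV and Cont sEV, where the background was 0% in each. The lowest limma adjusted p of any subunit was 0.317 for TIS sEV against saline, 0.301 for Cont sEV against saline and 0.995 for TIS sEV against Cont sEV. At an unadjusted p under 0.05, 23 subunits were higher and 1 lower in TIS sEV than in saline tumours (background 3.03% and 12.6% of all tested genes). For Cont sEV against saline these counts were 12 and 2 (background 1.65% and 13.9%), and for TIS sEV against Cont sEV 1 and 1 (background 3.1% and 0.804%). Cont sEV is 1 library, so both of its comparisons take their spread from the other groups and assume that it varies like them. These counts depended on the settings: the 24 of TIS sEV against saline were 1 with the deposited TPM, 40 with size factors, 14 without the intensity trend, 12 without saline replicate 2 and 14 without saline replicate 3. The 14 of Cont sEV against saline were 0 with the deposited TPM, 36 with size factors, 7 without the trend and 5 without saline replicate 2. The other 5 genes, Cox6a2, Cox7b2, Cox8b, Cox8c and the second entry of Atp5o, were too low to test.

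The fitted differences of the subunits leaned to the side of the vesicle-treated tumours. For TIS sEV against saline the difference was positive for 69 of the 78 tested subunits (background 26.8%), with a median of 0.26 on the log2 scale, while the median of all tested genes was -0.30. For Cont sEV against saline it was positive for 59 (background 22.3%), with a median of 0.34 and a median of all genes of -0.45. Both comparisons share the 3 saline libraries, so their values are not independent. Between TIS sEV and Cont sEV 40 differences were positive (background 64.6%), with a median of 0.0058 and a median of all genes of 0.15. This too depended on the scaling, with 4 positive and a median of -0.58 with the deposited TPM and 20 positive and a median of -0.20 with size factors. The direction of the TIS sEV difference depended on the scaling: with the deposited TPM the subunit median was -0.21, with 23 positive, and the median of all genes -0.62, and with median-of-ratios size factors the subunit median was 0.57 and that of all genes -0.037. Relative to the median gene the subunits lay at 0.56, 0.41 with the deposited TPM and 0.60 with size factors.

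Every TIS sEV library lay above every saline library for 32 of the 78 tested subunits (background 5.39%) and below for 2, Uqcrc2 and Atp5f1 (background 19.6%). For the other 44 the groups overlapped. Without TIS sEV replicate 2 these counts were 45 and 2 (background 10.5% and 20.9%). On the deposited TPM scale they were 2 and 1 (background 0.761% and 14.2%), and with size factors 47 and 0 (background 11.1% and 13.4%). The Cont sEV library lay above every saline library for 51 subunits (background 12.9%) and below for 12 (background 63.5%). Of the 78 tested subunits 77 reached 1 rescaled TPM in every saline library, and the exception was Cox6b2. It is among the 32, but was tested only because of its levels in the TIS sEV libraries. Among the TIS sEV libraries, replicate 3 held the highest level for 35 subunits, replicate 2 for 24 and replicate 1 for 19. The residual SD between libraries of a group had a median of 0.19 log2 over the subunits, and 72 of the 78 lay under the median of all tested genes, 0.36. By mean level the median subunit lay at the 96.3 percentile of all tested genes.

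**Figure D2:**
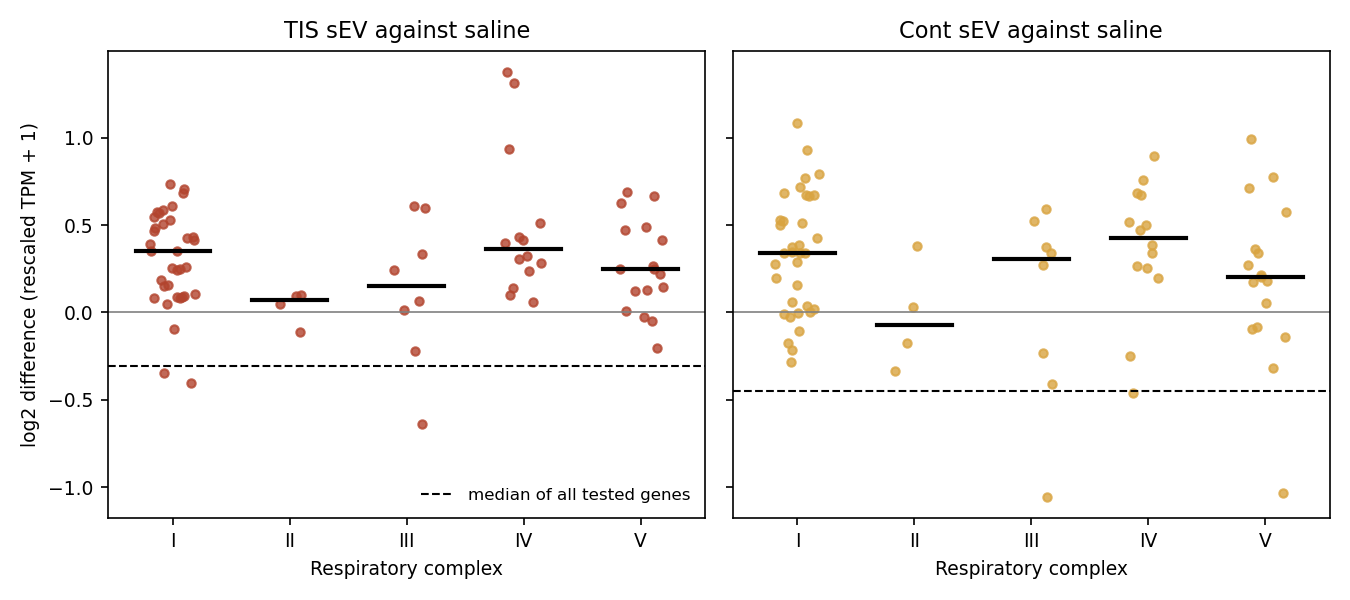
Fitted log2 difference of each tested subunit by complex, TIS sEV minus saline at left and Cont sEV minus saline at right, with a black bar at the median of each complex and a dashed line at the median of all tested genes. The medians of complexes I, III, IV and V lie above 0 in both panels, that of complex II near 0, and the dashed lines at -0.30 and -0.45. With the deposited TPM the subunit median for TIS sEV was -0.21.

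The subunit mRNAs are short, and short mRNAs as a class had differences of the same sign. The longest annotated coding transcript of the tested subunits had a median of 892 bases, against 3006 over all tested genes, and 45 of 78 subunits had one of up to 1 kb. Over all 698 tested genes of up to 1 kb the median difference between TIS sEV and saline was 0.16, over those of 1 to 2 kb -0.040, of 2 to 4 kb -0.33 and of over 4 kb -0.51. For Cont sEV against saline these medians were 0.14, -0.14, -0.47 and -0.69. The 45 subunits of up to 1 kb had a median of 0.42 for TIS sEV and 0.39 for Cont sEV, and the 25 of 1 to 2 kb 0.14 and 0.062. The 6 of 2 to 4 kb had 0.097 and 0.010, and the 2 of over 4 kb 0.59 and 0.34. Every TIS sEV library lay above every saline library for 22 of the 45 short subunits, where the background over all tested genes of up to 1 kb was 19.6%, and below for 0 (background 1.86%). The part of transcript length in the subunit values was not tested. Annotated length need not be the length of the transcript present in these tumours.

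**Figure D3:**
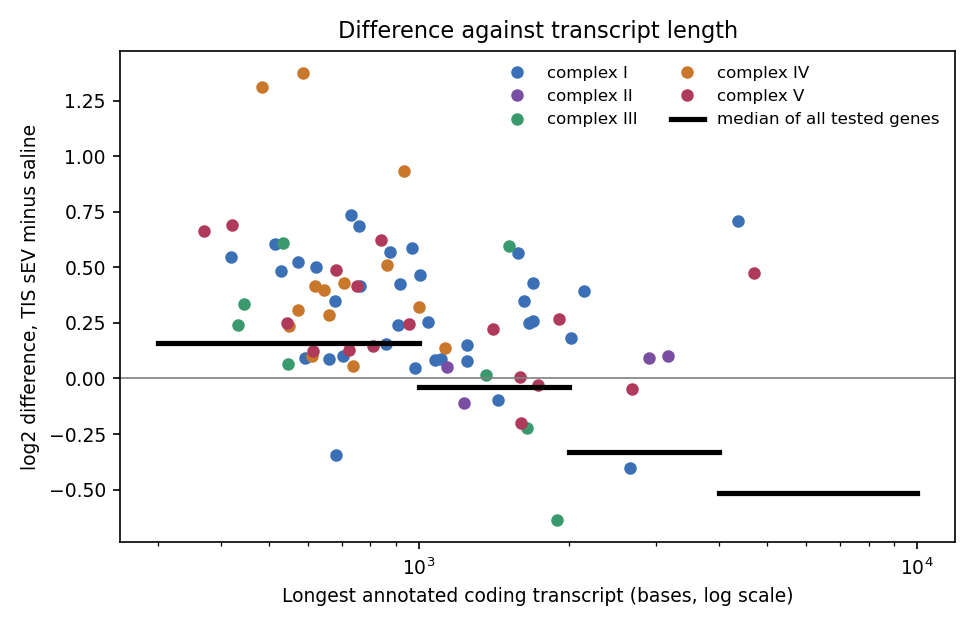
Fitted log2 difference, TIS sEV minus saline, of each tested subunit against the length of its longest annotated coding transcript on a log axis, coloured by complex. Black bars are the medians of all tested genes in 4 length classes, from 0.16 for transcripts of up to 1 kb to -0.51 for those of over 4 kb.

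The length dependence varied between libraries of a group. Taken as the level minus the mean saline level, genes of over 4 kb had medians of -0.12, -0.89 and -0.49 in TIS sEV replicates 1, 2 and 3, -0.69 in the Cont sEV library and -0.15, 0.098 and 0.054 in saline replicates 1, 2 and 3. TIS sEV replicate 1 had the value closest to 0 of the vesicle-treated libraries and lay near saline replicate 1. Its summed subunit level, 2.97% of the nuclear protein-coding RNA, was the lowest of the 3 TIS sEV libraries and above the 3 saline libraries. The other libraries did not keep this order. TIS sEV replicate 2, lowest over 4 kb at -0.89, held 3.23%, less than the 3.50% of replicate 3 at -0.49. Saline replicate 1, the lowest of the saline libraries over 4 kb, held the smallest sum of them, 2.57%. A link between the 2 measures was not tested.

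**Figure D4:**
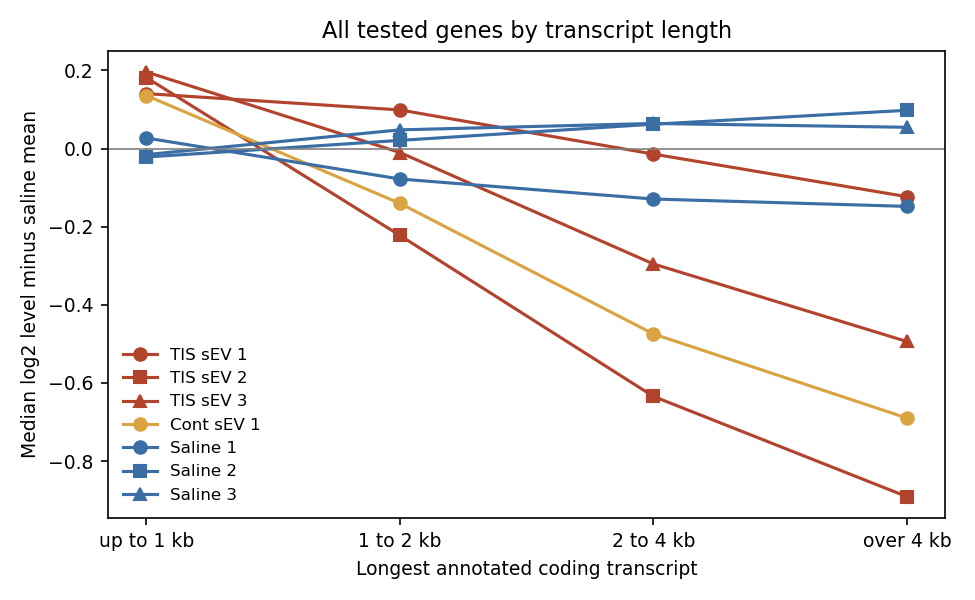
Median log2 level of all tested genes minus the mean saline level, by length of the longest annotated coding transcript, for each library. Lines of TIS sEV replicates 2 and 3 and of the Cont sEV library descend with length, to -0.89, -0.49 and -0.69 over 4 kb, while TIS sEV replicate 1 ends at -0.12.

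Genes for subunits are known to be controlled in mammals by nuclear respiratory factor NRF1, by GABP, an ETS factor also called NRF2, and by YY1. Promoter sequences, 250 bases before to 50 after the RefSeq start on GRCm38.p6, were at hand for 66 of the 82 symbols, of which 64 were tested. The core of the NRF1 motif (GCGCA, any 1 base, then GCGC) was found on either strand in 17 of these 64, or 26.6%, against 11.9% of all tested genes with a promoter and 5.19% of all genes. The ETS letters CCGGAAG were found in 16 (25.0%), against 21.2% of tested genes, and the YY1 letters (AAGATGG directly followed by CGG) in 5 (7.81%), against 2.59%. All were searched on both strands, and matches of the 3 motifs were counted separately, overlaps included. Subunits with the NRF1 letters had a median difference of 0.35 between TIS sEV and saline and those without 0.26. For the ETS letters these medians were 0.28 and 0.28, and for the YY1 letters 0.15 and 0.31, so the 3 motifs did not share a direction. A match describes letters in this window and shows no binding. For each of complexes I, III, IV and V the promoter is shown of the subunit with the lowest unadjusted p among those that hold the NRF1 letters, a choice made after the values were seen. They are written 5′ to 3′ on the strand of the gene, with NRF1 matches in capitals, at chr13:73328433-73328732 (minus strand) for Ndufs6, chr9:108936398-108936697 (plus strand) for Uqcrc1, chr5:115348909-115349208 (minus strand) for Cox6a1 and chr5:108434350-108434649 (minus strand) for Atp5k.
Ndufs6: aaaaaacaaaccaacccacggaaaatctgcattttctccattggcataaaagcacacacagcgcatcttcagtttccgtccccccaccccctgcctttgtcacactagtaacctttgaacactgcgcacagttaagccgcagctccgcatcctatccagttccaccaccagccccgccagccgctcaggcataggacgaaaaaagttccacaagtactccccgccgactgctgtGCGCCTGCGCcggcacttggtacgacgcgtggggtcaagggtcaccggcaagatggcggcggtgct
Uqcrc1: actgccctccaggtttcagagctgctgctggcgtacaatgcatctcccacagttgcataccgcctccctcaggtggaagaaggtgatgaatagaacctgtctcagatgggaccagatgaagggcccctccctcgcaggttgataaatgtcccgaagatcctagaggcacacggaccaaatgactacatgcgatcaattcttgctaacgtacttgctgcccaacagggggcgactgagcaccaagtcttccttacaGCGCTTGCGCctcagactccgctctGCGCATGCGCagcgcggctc
Cox6a1: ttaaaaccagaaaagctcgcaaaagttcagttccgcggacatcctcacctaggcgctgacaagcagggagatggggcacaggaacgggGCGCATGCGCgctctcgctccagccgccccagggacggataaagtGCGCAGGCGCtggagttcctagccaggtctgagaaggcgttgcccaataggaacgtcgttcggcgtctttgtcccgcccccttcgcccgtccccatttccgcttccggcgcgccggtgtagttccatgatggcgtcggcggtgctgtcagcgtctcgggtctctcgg
Atp5k: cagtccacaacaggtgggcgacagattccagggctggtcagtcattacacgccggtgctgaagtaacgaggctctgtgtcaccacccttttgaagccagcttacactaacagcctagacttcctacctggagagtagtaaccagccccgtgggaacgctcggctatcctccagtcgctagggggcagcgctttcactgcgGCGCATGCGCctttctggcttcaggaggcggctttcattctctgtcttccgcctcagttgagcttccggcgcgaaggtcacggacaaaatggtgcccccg
Counted from the annotated start, the first match begins at -16 in Ndufs6, 5 in Uqcrc1, -162 in Cox6a1 and -50 in Atp5k, and Uqcrc1 and Cox6a1 hold 2 matches each. Of these 4 genes, Ndufs6 and Atp5k separated TIS sEV from saline tumours and Uqcrc1 and Cox6a1 did not.

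Complex I, the NADH dehydrogenase, summed to 8121, 9045 and 9974 rescaled TPM in the TIS sEV libraries, 9491 in the Cont sEV library and 7019, 7029 and 7023 in the saline libraries. Each vesicle-treated value lay above the saline values, which were close together, with a TIS sEV mean 1.29 times that of saline. Of its 35 tested genes, 17 separated TIS sEV from saline tumours upwards and 0 downwards (background 5.39% and 19.6%), 18 overlapped and 0 passed. Of the 35, 19 had transcripts of up to 1 kb, a class where 19.6% of all tested genes separated upwards and 1.86% downwards. The 7 core subunits that carry flavin, iron-sulfur clusters or quinone contacts had a median difference of 0.25 (range -0.40 to 0.47), and the 28 accessory subunits 0.37 (range -0.34 to 0.73). The core mRNAs were also longer, at a median of 1623 bases against 868.

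Further separated genes were chosen for naming after their values were seen: Ndufa1, Ndufa7, Ndufa11, Ndufb3, Ndufb4, Ndufb7, Ndufb11, Ndufs5 and Ndufv3, all accessory subunits.

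Ndufb10, an accessory subunit of the membrane arm (chr17:24722060-24724478, minus strand, GRCm38), was at 251, 349 and 339.9 rescaled TPM in TIS sEV, 296 in Cont sEV and 192, 183 and 183 in saline tumours. The 3 saline values lay close together and below each vesicle value (0.73, SE 0.19, limma adjusted p = 0.317; the first value in such brackets is the log2 difference between TIS sEV and saline). Ndufb2, another membrane-arm subunit, was at 124, 193 and 154 with TIS sEV, 135 with Cont sEV and 99.4, 84.1 and 99.9 with saline (0.71, SE 0.22, limma adjusted p = 0.317). Ndufs6, a zinc-binding subunit of the arm that takes up electrons, had the lowest unadjusted p of all subunits, at 0.0035. Its levels were 217, 248 and 244 with TIS sEV, 233 with Cont sEV and 156, 139 and 144 with saline (0.68, SE 0.17, limma adjusted p = 0.317), with no overlap. Its pseudogene Ndufs6b reached at most 0.416 deposited TPM.

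The core subunits did not all lie on the same side of saline. Ndufv1, which binds the flavin that accepts electrons from NADH, averaged 94.2 ± 4.35 with TIS sEV, 106 with Cont sEV and 79.3 ± 9.01 with saline (SD, n = 3 for TIS sEV and saline, here and below; log2 difference 0.25). Its partner Ndufv2 averaged 245 ± 33.6 with TIS sEV, against 182 ± 28.0 with saline (0.43). Ndufs3, of the arm that leads to the quinone site, differed by 0.25, and the iron-sulfur subunits Ndufs7 and Ndufs8 by 0.046 and 0.47. TIS sEV lay above saline without overlap for Ndufv1, Ndufv2, Ndufs3 and Ndufs8. Ndufs1, the largest core subunit and the lowest in level, was at 38.8, 18.4 and 42.3 with TIS sEV, 41.6 with Cont sEV and 33.8, 47.4 and 44.6 with saline. TIS sEV replicate 2 was low here and the other 2 lay within the saline range, and the groups overlapped (-0.40, SE 0.34, limma adjusted p = 0.497). Relative to the median gene its value was -0.097, or 0.10 without that library. Ndufc2, a small membrane-arm subunit, was at 83.7, 69.1 and 109.7 with TIS sEV, 102 with Cont sEV and 112, 122 and 96.0 with saline (-0.34, SE 0.23, limma adjusted p = 0.409). The groups overlapped, and its value relative to the median gene, -0.040, turned to 0.00205 with size factors. Ndufb9, the highest of complex I, averaged 667 ± 147 with TIS sEV, 880.2 with Cont sEV and 611 ± 33.7 with saline (0.10).

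**Figure D5:**
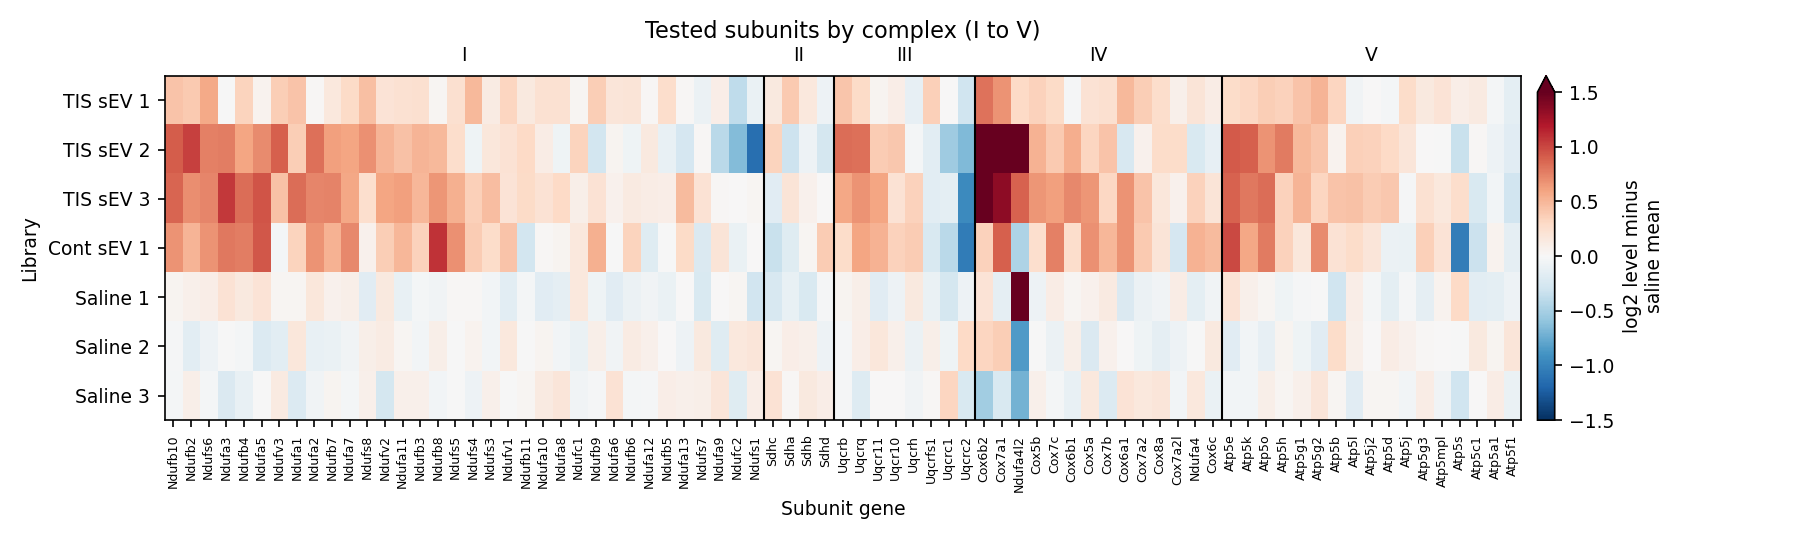
Log2 level of 77 of the 78 tested subunits in the 7 libraries minus the mean saline level of the same gene, ordered by complex and by difference, with red above and blue below the saline mean and colours saturated at 1.5. TIS sEV replicates 2 and 3 and the Cont sEV library are red over much of complexes I, III, IV and V, TIS sEV replicate 1 is paler, and Uqcrc2 is blue in the vesicle-treated libraries.

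Complex II, succinate dehydrogenase, also an enzyme of the citric acid cycle, differed little. It summed to 536, 478 and 499 rescaled TPM with TIS sEV, 525 with Cont sEV and 452, 502 and 545 with saline, with the TIS sEV values inside the saline range. The 4 differences between TIS sEV and saline ran from -0.11 to 0.10. Here 0 genes separated (background 5.39% upwards and 19.6% downwards), and 0 passed. Sdha, the flavoprotein that oxidises succinate, was at 76.9, 46.8 and 66.5 with TIS sEV, 51.3 with Cont sEV and 53.8, 62.2 and 58.6 with saline. Sdhb, which holds the iron-sulfur clusters, differed by 0.05, and the membrane anchors Sdhc and Sdhd by 0.10 and -0.11. Cont sEV had Sdhd at 239, above the saline values of 181, 173 and 196, and Sdhc at 92.5, below those of 98.5, 119 and 136. The complex II mRNAs are the longest of the 5 complexes, with a median of 2066 bases and none of up to 1 kb. Relative to the median gene their median was 0.38 for both TIS sEV and Cont sEV.

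Complex III, cytochrome bc1, summed to 3649, 4314 and 4593 with TIS sEV, 4486 with Cont sEV and 3503, 3586 and 3436 with saline, so TIS sEV replicate 1 lay just above the highest saline library. The 5 small subunits had a median difference of 0.34 (range 0.064 to 0.61), and the core proteins Uqcrc1 and Uqcrc2 with the Rieske protein Uqcrfs1 had -0.22 (range -0.64 to 0.016). Median transcript lengths were 535 and 1653 bases, and 0 of the 8 passed. Of the 8, 3 separated TIS sEV from saline tumours upwards and 1 downwards (background 5.39% and 19.6%). Transcripts of up to 1 kb were found for 4 of them, a class where 19.6% of all tested genes separated upwards and 1.86% downwards. Uqcrb, a small subunit near the quinone site, was at 359, 479.7 and 402 with TIS sEV, 325 with Cont sEV and 276, 265 and 266 with saline, with no overlap (0.61, SE 0.17, limma adjusted p = 0.317). Uqcrq, another small subunit, was at 503, 735 and 660.0 with TIS sEV, 623 with Cont sEV and 438, 443 and 361 with saline, again apart (0.60, SE 0.20, limma adjusted p = 0.317). Uqcrc2, a core protein of the matrix side (chr7:120635176-120659524, plus strand, GRCm38), lay on the other side, at 66.8, 51.6 and 42.1 with TIS sEV, 39.2 with Cont sEV and 78.3, 102 and 70.0 with saline. Its 4 vesicle values lay below the 3 saline values, and its difference for TIS sEV was the lowest of all 78 tested subunits (-0.64, SE 0.25, limma adjusted p = 0.317). It was -0.33 relative to the median gene. Uqcrc1, its partner, was at 170.3, 117 and 153 with TIS sEV, 127 with Cont sEV and 141, 161 and 212 with saline, with overlap. Its value relative to the median gene, 0.082, turned to -0.062 with the deposited TPM. Uqcrfs1, which passes electrons to cytochrome c1, was at 116, 80.9 and 80.9 with TIS sEV and 83.8, 96.1 and 91.1 with saline. Uqcrh, the hinge protein and the highest of the complex, averaged 1259.7 ± 224 with TIS sEV, 1548 with Cont sEV and 1196 ± 105 with saline (0.064).

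Complex IV, cytochrome c oxidase, has a catalytic core encoded by mitochondrial DNA, so all its nuclear genes are accessory subunits. They summed to 7414, 7239 and 8509 with TIS sEV, 8501 with Cont sEV and 6268, 6291 and 6559 with saline, without overlap. All 14 tested genes had a positive difference between TIS sEV and saline (background 26.8%), with a median of 0.36. TIS sEV lay above saline for 6 of them (background 5.39%), and 0 passed. The 14 and the 6 include Cox6b2, which was tested only because of its levels in the TIS sEV libraries. Of the 14, 12 had transcripts of up to 1 kb, a class where 19.6% of all tested genes separated upwards. The median difference of all tested genes in that class was also positive, at 0.16. Cox5b, a zinc-binding subunit, was at 541, 609.6 and 672 with TIS sEV, 506 with Cont sEV and 404, 422 and 448 with saline (0.51, SE 0.16, limma adjusted p = 0.317). Cox5a, which faces the matrix, differed by 0.40, and the small membrane subunits Cox7c and Cox7b by 0.43 and 0.32. All these separated the groups. Cox6b1, on the side where cytochrome c docks, differed by 0.42, Cox8a by 0.24, Ndufa4 by 0.10 and Cox7a2l by 0.14, with overlap. Cox6c, the highest of the complex, averaged 1205 ± 135 with TIS sEV, 1596 with Cont sEV and 1155 ± 103 with saline (0.058).

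Subunits 6A, 6B, 7A and 8 exist as isoforms of different tissues. The widely expressed Cox6a1 averaged 748 ± 229 with TIS sEV, 930.0 with Cont sEV and 587 ± 85.5 with saline (0.31), and Cox7a2 averaged 425 ± 54.8 with TIS sEV, 454 with Cont sEV and 348 ± 33.6 with saline (0.29). Cox6a2, an isoform of heart and skeletal muscle, was at 0.604, 6.01 and 0.668 with TIS sEV, 0.490 with Cont sEV and 0.616, 0.700 and 1.59 with saline. Cox8b, also of muscle, was listed at 0.414, 0 and 0 with TIS sEV, 0 with Cont sEV and 0, 0 and 0.987 with saline. Cox7a1, an isoform of muscle and brown fat, was at 11.8, 29.4 and 19.3 with TIS sEV, 13.9 with Cont sEV and 6.29, 9.36 and 5.84 with saline. Its vesicle values lay above all saline values, without overlap (1.31, SE 0.37, limma adjusted p = 0.317). Cox7a2 was 37.9, 12.3 and 24.1 times as high as Cox7a1 with TIS sEV, 32.6 times with Cont sEV and 51.7, 35.4 and 66.2 times with saline. Cox6b2, an isoform known from testis, was at 1.95, 4.26 and 4.26 with TIS sEV, 1.12 with Cont sEV and 0.923, 1.09 and 0.163 with saline (1.38, SE 0.34, limma adjusted p = 0.317). These levels are near the minimum for testing, and 2 of the saline values lie under it. Cox6b2 met the rule of at least 3 libraries at the minimum only through the TIS sEV libraries, where it was high. Its difference is therefore no support for a change. Ndufa4l2, a hypoxia-induced relative of Ndufa4, was at 11.3, 29.7 and 17.3 with TIS sEV, 6.25 with Cont sEV and 28.2, 4.54 and 5.12 with saline. Saline replicate 1 and TIS sEV replicate 2 were high and the groups overlapped (0.94, SE 0.65, limma adjusted p = 0.426).

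Markers of tissues that hold such isoforms varied between libraries. The 6 skeletal muscle markers summed to 6.82, 6.82 and 2.84 rescaled TPM with TIS sEV, 11.8 with Cont sEV and 5.09, 4.69 and 69.1 with saline, with 1 of 6 tested and Myh4 listed at 0 in every library but saline replicate 3. The 5 adipocyte markers summed to 14.1, 247 and 61.3 with TIS sEV, 37.2 with Cont sEV and 24.1, 22.4 and 31.7 with saline, with 2 of 5 tested. Cox7a1, Cox6a2 and the adipocyte markers were each highest in TIS sEV replicate 2. Other libraries did not keep this order. TIS sEV replicate 1 had the lowest adipocyte sum, 14.1, with Cox7a1 at 11.8, above each saline value. Saline replicate 3 had the highest muscle sum, 69.1, with the lowest Cox7a1, 5.84, and the highest Cox6a2 of the saline libraries, 1.59. The part of these tissues in the isoform values was not tested.

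Complex V, the ATP synthase, summed to 10024, 11185 and 11446 with TIS sEV, 11037 with Cont sEV and 8488, 8969 and 8669.9 with saline, with each vesicle value above each saline value. Of 17 tested genes, 6 separated TIS sEV from saline tumours upwards and 1 downwards (background 5.39% and 19.6%), and 0 passed. Of the 17, 10 had transcripts of up to 1 kb, a class where 19.6% of all tested genes separated upwards and 1.86% downwards. In the F1 head, where ATP forms, the catalytic beta subunit Atp5b was at 1566, 1293 and 1681 with TIS sEV, 1449.7 with Cont sEV and 1012, 1515 and 1270.2 with saline, with overlap (0.27, SE 0.20, limma adjusted p = 0.445). The alpha subunit Atp5a1, present in the enzyme in the same number as beta, was at 253, 245 and 252 with TIS sEV, 268 with Cont sEV and 233, 265 and 279 with saline (-0.049, SE 0.16, limma adjusted p = 0.873). Atp5b was 6.19, 5.28 and 6.68 times as high as Atp5a1 with TIS sEV, 5.40 times with Cont sEV and 4.34, 5.71 and 4.55 times with saline. The gamma subunit Atp5c1 of the central shaft differed by -0.027. Atp5e, the epsilon subunit at the foot of the shaft, had the largest difference of the complex. It was at 983, 1539.8 and 1499 with TIS sEV, 1619 with Cont sEV and 941, 723 and 791 with saline, and every vesicle value lay above every saline value (0.69, SE 0.22, limma adjusted p = 0.317).

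The c ring, which turns as protons pass, is made of a single mature protein encoded by Atp5g1, Atp5g2 and Atp5g3. The 3 genes together gave 1714, 1624 and 1678 rescaled TPM with TIS sEV, 1874 with Cont sEV and 1290.4, 1284 and 1474 with saline, without overlap. Atp5g2 and Atp5g3 gave most of it in each group. Atp5g1 was at 334, 349.8 and 354 with TIS sEV, 281 with Cont sEV and 247, 238 and 262 with saline (0.47, SE 0.16, limma adjusted p = 0.317). Atp5g2 averaged 689 ± 45.8 with TIS sEV, 846 with Cont sEV and 518 ± 63.3 with saline (0.42), and Atp5g3 averaged 637 ± 48.4 with TIS sEV, 747 with Cont sEV and 582 ± 48.8 with saline (0.13). TIS sEV lay above saline for Atp5g1 and Atp5g2, while Atp5g3 overlapped. Atp5k, the small e subunit of the membrane part, was at 642, 961 and 892 with TIS sEV, 769.5 with Cont sEV and 546, 501 and 504 with saline, without overlap (0.67, SE 0.19, limma adjusted p = 0.317). Its pseudogene Atp5k-ps2 stayed at 1.70 deposited TPM or less. Atp5f1, the b subunit of the peripheral stalk, was at 268, 265 and 243 with TIS sEV, 269.8 with Cont sEV and 282, 337 and 277 with saline. The TIS sEV values lay below the saline values and the Cont sEV value below them as well (-0.20, SE 0.17, limma adjusted p = 0.493), yet relative to the median gene the value was 0.10 and turned to -0.0462 with the deposited TPM. The coupling factor Atp5s, the lowest tested gene of the complex, was at 4.02, 2.70 and 4.62 with TIS sEV, 1.28 with Cont sEV and 4.77, 3.68 and 2.80 with saline.

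As a share of the subunit RNA, complex I held 27.3%, 28.0% and 28.5% with TIS sEV, 27.9% with Cont sEV and 27.3%, 26.6% and 26.8% with saline. Every vesicle library lay above every saline library, by little. Complex III held 12.3%, 13.4% and 13.1% with TIS sEV, 13.2% with Cont sEV and 13.6%, 13.6% and 13.1% with saline, and complex IV 24.9%, 22.4% and 24.3% with TIS sEV, 25.0% with Cont sEV and 24.4%, 23.9% and 25.0% with saline. Complex V held 33.7%, 34.7% and 32.7% with TIS sEV, 32.4% with Cont sEV and 33.0%, 34.0% and 33.1% with saline. Complex II was the smallest, at 1.80%, 1.48% and 1.43% with TIS sEV, 1.54% with Cont sEV and 1.76%, 1.90% and 2.08% with saline. TIS sEV and saline overlapped for complexes II, III, IV and V. The median level of a tested gene was highest in complex IV in each of the 7 libraries but TIS sEV replicate 2, where it was highest in complex III, and lowest in complex II in each library.

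The 4 subunits that the symbol patterns do not match had a median difference of 0.13 between TIS sEV and saline, against 0.26 for the 78 tested subunits. Cox4i1, the widely expressed form of the largest nuclear subunit of complex IV, averaged 1450.3 ± 284 with TIS sEV, 1889 with Cont sEV and 1218 ± 65.8 with saline (0.24). Its hypoxia-induced relative Cox4i2 averaged 4.37 ± 1.34 with TIS sEV, 5.84 with Cont sEV and 4.24 ± 1.41 with saline (0.036). The acyl carrier Ndufab1 of complex I differed by 0.23 and cytochrome c1, Cyc1, by -0.15. Of these 4, 0 passed and 0 separated TIS sEV from saline (background 5.39% upwards and 19.6% downwards).

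Other mitochondrial genes and the ribosomal proteins were also compared between TIS sEV and saline, and 0 genes of these lists passed. Over all tested genes 26.8% had a positive difference, 5.39% separated upwards and 19.6% downwards, and of those of over 4 kb 30.6% separated downwards. Of 47 tested assembly factors 19 had a positive difference, with a median of -0.054, 7 genes separated upwards and 4 downwards. Cox17, the copper chaperone of complex IV, differed by 0.60, Coa7, another factor for complex IV, by 0.57, and Acad9 and Tmem186, which help to assemble complex I, by -0.96 and -0.77. The 17 citric acid cycle and pyruvate dehydrogenase genes had a median of -0.29, with 3 positive, from -0.91 for Dld and -0.87 for Dlat, both parts of the pyruvate dehydrogenase complex, to 0.24 for fumarase, Fh1, and 0.55 for Suclg1, a subunit of succinyl-CoA ligase. The 16 tested electron carrier genes had a median of -0.29, with 2 positive, from -0.77 for Gpd2, the mitochondrial glycerol-3-phosphate dehydrogenase, and -0.48 for Coq3 to 0.051 for Coq7, both enzymes of ubiquinone synthesis, and 0.35 for Etfb, a subunit of the electron transfer flavoprotein. The 15 tested regulators of mitochondrial biogenesis had a median of -0.40, with 3 positive and 5 separated downwards, shares near those of all genes and of genes of over 4 kb. Gabpa, a subunit of GABP, differed by -1.08, Tfam, which packages mitochondrial DNA, by -0.99, the coactivator Pprc1 by 0.045 and the nuclear receptor Esrra by 0.052. These lists have longer mRNAs than the subunits, with median lengths of 1813, 2580, 1783 and 4153 bases.

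Ribosomal proteins, which have shorter mRNAs than those lists, were compared as well. The background over all tested genes was 26.8% positive, 5.39% separated upwards and 19.6% downwards. Among genes of up to 1 kb 19.6% separated upwards and 1.86% downwards, and among those of 1 to 2 kb 9.86% and 8.92%. The 78 mitochondrial ribosomal proteins had a median of 0.083 and a median length of 1328 bases, with 44 positive, 14 separated upwards and 2 downwards. Mrps25 and Mrpl57 differed by 0.56 and 0.51, and Mrps31 and Mrpl19 by -0.74 and -0.57. The 82 tested cytosolic ribosomal proteins, at a median length of 926 bases close to that of the subunits, had a median of -0.011, with 39 positive, 3 separated upwards and 6 downwards. They ran from -0.50 for Rps3 and -0.42 for Rpl4 to 0.46 for Rpl39l and 0.49 for Rpl14. The 47 of them of up to 1 kb had a median of 0.049, against 0.42 for the 45 subunits of that class and 0.16 for all genes of it. For Cont sEV against saline the cytosolic ribosomal proteins had a median of 0.18 and the mitochondrial ones 0.050.

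Markers of the cell types in the tumour were unequal between libraries, and their part in the subunit values was not tested. The 4 epithelial tumour cell markers summed to 2586, 1747 and 3780.3 rescaled TPM with TIS sEV, 3392 with Cont sEV and 2415, 4995 and 5427 with saline. All 4 had a negative difference between TIS sEV and saline, as did most tested genes, of which 26.8% had a positive one. The 4 leukocyte markers summed to 102, 129.9 and 95.8 with TIS sEV, 47.3 with Cont sEV and 55.5, 118 and 61.2 with saline. Most of that sum was Cd68, of macrophages (0.64). Ptprc, carried by all leukocytes, was at 4.83, 1.78 and 3.83 with TIS sEV, 3.16 with Cont sEV and 4.89, 8.31 and 5.74 with saline. Each vesicle value lay below each saline value (-0.75, or -0.44 relative to the median gene), but 4.83 and 4.89 lay close together. Every TIS sEV library lay below every saline library for 19.6% of all tested genes. For the 3 red cell markers the sums were 25.9, 176 and 209.9 with TIS sEV, 77.8 with Cont sEV and 114, 364 and 137 with saline. The 3 fibroblast markers gave 53.9, 38.9 and 56.0 with TIS sEV, 24.4 with Cont sEV and 88.9, 62.1 and 25.2 with saline, and the 3 endothelial markers 17.4, 7.31 and 46.4 with TIS sEV, 14.97 with Cont sEV and 16.7, 29.1 and 15.3 with saline. The TIS sEV and saline ranges overlapped for each of these 5 lists, and 0 markers passed.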

How the data were processed

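Bulk tumour RNA was sequenced in 7 libraries (3 TIS sEV, 1 Cont sEV, 3 saline). The authors deposited 1 table of TPM per gene of every RNA class. The submitters' processing notes name FastQC 0.11.9, Trim Galore 0.6.6, Salmon 1.4.0, DESeq2 1.28.0 and the build GRCm38.p6, without roles, and the annotation is not given in the sources used here. TPM fixes the sum of all entries, so a library rich in ribosomal RNA has lower TPM for every mRNA, and it holds no depth, so counting error could not be given.

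Of 55487 table entries, 55141 were found by identifier in GENCODE M21. Of 95 entries matching the symbol patterns, 83 were protein-coding, 11 were processed pseudogenes (at most 20.3 deposited TPM) and 1 was Ndufb1-ps, annotated as a long noncoding RNA (98.5 to 316). Reads could be split between the pseudogenes and near-identical coding copies. All these noncoding entries were left out. The 83 genes hold no coding Ndufb1, so Ndufb1-ps has no such copy among them. The 21884 nuclear protein-coding genes were rescaled to a total of 1000000 per library, and 11438 with at least 1 in at least 3 libraries were tested with limma 3.58.1 (R 4.3.3) on log2(value + 1), with group means over 7 libraries, an intensity trend and 4 residual degrees of freedom. The lone Cont sEV library was assumed to vary like the other groups. On simulated data for TIS sEV and saline with 11438 genes, the test called 11% of 100 genes given a 1 log2 change and 66% of 100 given a 2 log2 change, with 3 false calls. The changed genes were drawn from all genes above a level cut, each with its own residual SD. The median of that SD was 0.36 over all tested genes and 0.19 over the subunits, so these shares do not measure the power for subunits. Alternatives were other scalings, pseudocounts, filters, no trend, leaving out each library, a replicate block, and other memberships of the complexes.

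Named subunits are the 2 largest and 2 smallest differences and the highest and lowest level in each complex, and a set of core and isoform genes, and of other lists the 2 largest and 2 smallest differences. Ndufs6 and the separated accessory subunits of complex I were added after their values were seen. The members and lists were chosen with earlier results of these data known, and the promoter motifs after the table was read. Sequences are from RefSeq (GRCm38.p6) and gene positions from GENCODE M21. Besides the subunits that the naming rule leaves unnamed, 1 tested subunit is left out of the text and the heatmap and is not reported here, but remains in counts, sums and medians.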

Additional observations from a re-analysis of the deposited data

How the results depend on the processing

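No subunit was called under any alternative, in any of the 3 comparisons. Counts of called genes were 0 in all 3 comparisons in the main analysis. For TIS sEV against saline, 23 were called with the deposited TPM, 1 with no filter, 3 with the replicate block and 0 to 1 with 1 library left out. For Cont sEV against saline, 8 were called with the deposited TPM, 1 with a pseudocount of 5 and 51 with no filter. For TIS sEV against Cont sEV, 4 were called with the deposited TPM, 1 with a pseudocount of 5, 48 with no filter and 0 to 1 with 1 library left out. Subunits of TIS sEV against saline at an unadjusted p under 0.05 numbered 11 with the replicate block, against 24 without it. No pairing by replicate number was seen: correlations of the deviations of same-numbered TIS sEV and saline libraries were -0.295, -0.0174 and -0.0495. Those of differently numbered libraries ran from -0.163 to 0.244. Such correlations cannot show whether same-numbered libraries were handled together.

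The following complex medians are log2 differences relative to the median gene. For TIS sEV against saline they were 0.504 (complex I) and 0.515 (IV) with the deposited TPM, 0.539 (I) with a pseudocount of 5, and 0.455 (I), 0.178 (II), 0.259 (III), 0.430 (IV) and 0.352 (V) with no filter. With 1 library left out they ran from 0.491 to 0.831 (I), 0.189 to 0.426 (II), 0.272 to 0.694 (III), 0.555 to 0.887 (IV) and 0.332 to 0.806 (V). TIS sEV replicate 2, when left out, gave the lowest of these values and TIS sEV replicate 1 the highest. For Cont sEV against saline they were 0.628 (I) and 0.721 (IV) with a pseudocount of 5, and 0.552 (I), 0.137 (II), 0.516 (III), 0.550 (IV) and 0.413 (V) with no filter. For TIS sEV against Cont sEV they were -0.315 (I) and -0.329 (IV) with the deposited TPM and -0.0330 (IV) with no filter, and with 1 library left out from -0.336 to 0.0441 (I), -0.260 to 0.0652 (III) and -0.334 to 0.120 (V).

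The number of subunits with every TIS sEV library above every saline library was 2 with the deposited TPM, an alternative added after the data were seen. Signs relative to the median gene turned for 5 named subunits, all with small values. Atp5f1 was -0.0462 with the deposited TPM, -0.00432 with a pseudocount of 5, -0.0962 with no filter, and from -0.0828 without TIS sEV replicate 2 to 0.230 without TIS sEV replicate 1 with 1 library left out. Ndufc2 was 0.00205 with size factors, 0.00773 with a pseudocount of 0.1, 0.132 without TIS sEV replicate 1, 0.0390 without saline replicate 1, 0.0117 without saline replicate 2 and -0.213 without TIS sEV replicate 3. Leaving out TIS sEV replicate 2 gave Ndufs1 0.103, and leaving out replicate 3 gave -0.310. Sdhd was -0.00606 with no filter. Uqcrc1 was -0.0615 with the deposited TPM, -0.0217 with a pseudocount of 5 and -0.116 with no filter. The cause of these differences was not tested.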
